A study of Mus musculus with 8 samples.

Results

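Fhit and Wwox, a pair of tumour suppressor genes that span common fragile sites, were followed in the colon of mice given PhIP, a heterocyclic amine that forms when meat is cooked. They were the 2 members among 15597 genes with a symbol and a probe. Members were found by matching the RefSeq accession of each mouse probe to its gene, which gave 1 probe for Fhit and 3 probes for Wwox, 4 of 35078 mouse probes in all. All 4 passed the filter for testing, which asked that the scanner software found a probe on at least 3 arrays. Fhit passed it only through its 3 control arrays. The genes were chosen by their measured intensities, which were lower in PhIP than in PBS mice in these same data. Their difference between the groups is therefore given as a description, with its standard error and no test.

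Each of the 8 mice was profiled on its own array. All were males of the hCYP1A strain, which is humanized for CYP1A on a C57BL/6 background, kept on AIN93M diet and treated once by gavage at 8 weeks of age. The PhIP group (n = 5) received 200 mg per kg body weight and the PBS group (n = 3) the vehicle alone, and colonic crypt epithelium was scraped off 24 hours later. The series set out to find genes whose expression in the colon PhIP changes, and it holds no other dose or time. The labels number the mice as separate animals.

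Common fragile sites are stretches of chromosome that gap or break when DNA replication is slowed, and many of them lie inside very large genes. Fhit encodes a hydrolase of diadenosine polyphosphates from the histidine triad (HIT) family, and Wwox encodes an oxidoreductase with WW domains, which bind proline-rich motifs in partner proteins. The human counterparts, FHIT and WWOX, are often deleted or silenced in cancers, including those of the digestive tract, and mice that lack Fhit develop more tumours after exposure to carcinogens. CYP1A enzymes start the activation of PhIP to products that bind DNA.

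In the RefSeq gene table of assembly GRCm38.p6, Fhit lies on chromosome 14 and spans 1612 kb, which ranks it 10 among 21900 protein-coding genes by genomic span. Wwox lies on chromosome 8 and spans 913.1 kb, rank 72. The table lists 7 transcripts for Fhit and 10 for Wwox. The probe sequences were not available, so which of these transcripts each probe detects is not known.

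The RefSeq promoter table of the same assembly holds 2 start sites of Fhit, on the reverse strand, each with 250 bases before and 50 bases after it. They are shown because transcription of Fhit, the member that was found on no PhIP array, begins there. Wwox was not matched. Both windows were searched on both strands for CCAAT (the CCAAT box), GGGCGG (the GC box), GCGTG (the core that the aryl hydrocarbon receptor binds) and TATAAA (the TATA box). Capitals mark the matches, all of which read on the opposite strand of the printed window.
Fhit, upstream start, chr14:11161986-11162285, minus strand: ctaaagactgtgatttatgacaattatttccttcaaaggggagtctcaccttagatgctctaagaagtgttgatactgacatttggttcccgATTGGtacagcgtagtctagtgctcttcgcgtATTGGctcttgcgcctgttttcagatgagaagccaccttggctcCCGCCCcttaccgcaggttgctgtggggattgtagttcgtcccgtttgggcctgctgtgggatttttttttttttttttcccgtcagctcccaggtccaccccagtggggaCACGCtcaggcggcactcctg
Fhit, downstream start, chr14:10453409-10453708, minus strand: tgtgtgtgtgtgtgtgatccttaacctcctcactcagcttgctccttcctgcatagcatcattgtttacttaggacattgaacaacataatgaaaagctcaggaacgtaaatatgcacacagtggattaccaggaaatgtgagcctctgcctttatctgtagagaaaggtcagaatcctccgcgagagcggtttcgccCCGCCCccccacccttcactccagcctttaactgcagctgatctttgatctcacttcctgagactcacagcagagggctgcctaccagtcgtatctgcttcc

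The upstream window held CCAAT at 158 and 126 bases before the start (counted to the first capital), GGGCGG at 82 bases before it and GCGTG at 29 bases after it. The downstream window held GGGCGG at 52 bases before its start and none of the other motifs. TATAAA was in neither window. These are common motifs: of 32851 promoter windows of this length, 37.4% held CCAAT, 35.7% GGGCGG, 32.4% GCGTG and 13.6% TATAAA on either strand. The windows contained 50.7% and 49.3% G and C, with 12 and 7 CpG dinucleotides. A match is a string of letters only, since no binding or methylation was measured.

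Values are scanner intensities (median of the spot minus its local background) or the log2 of these intensities after quantile normalization between arrays. On the log2 scale, intensities were raised to a floor of 21.25 (log2 4.41), the percentile 5 of all normalized values found above background. On 7 arrays, 18861 to 20040 probes were found (53.8% to 57.1%). The array of PhIP mouse 1, scanned at a photomultiplier gain of 700 against 650 elsewhere, found 7501 (21.4%), and its median correlation with the other arrays was 0.766, against at least 0.971 for theirs. Results are given with it (8 arrays) and without it (7 arrays). In the authors' deposited log2 matrix, the column named for PhIP mouse 1 equals the scan of PhIP mouse 2, the column named for PhIP mouse 2 matches none of the scans, and the dim scan is absent. These 8 columns are called the authors' arrays. Over all features the limma fit called 2 of 15854 with 8 arrays (0.0126%, both higher in PhIP), 5 of 15842 with 7 arrays (0.0316%, all higher) and 11 of 15837 with the authors' arrays (0.0695%, of which 9 were higher, 0.0568%, and 2 lower, 0.0126%).

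Fhit was found on every PBS array and on no PhIP array. Its scanner intensity was 55, 54 and 78 in PBS mice 1 to 3, and 0, 18, 13, 25 and 20 in PhIP mice 1 to 5. The brightest PhIP array lay below the dimmest PBS array, so the groups did not overlap. The mean was 62.3 ± 13.6 (SD, n = 3) in PBS mice and 15.2 ± 9.52 (SD, n = 5) in PhIP mice, 24.4% of the PBS mean, and without PhIP mouse 1 it was 19.0 ± 4.97 (SD, n = 4), 30.5% of the PBS mean. The PBS signals were 2.35 to 3.39 times the standard deviation of their local background. The PhIP signals were 0 to 1.09 times it, so the PhIP arrays give only an upper bound for Fhit.

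**Figure D1:**
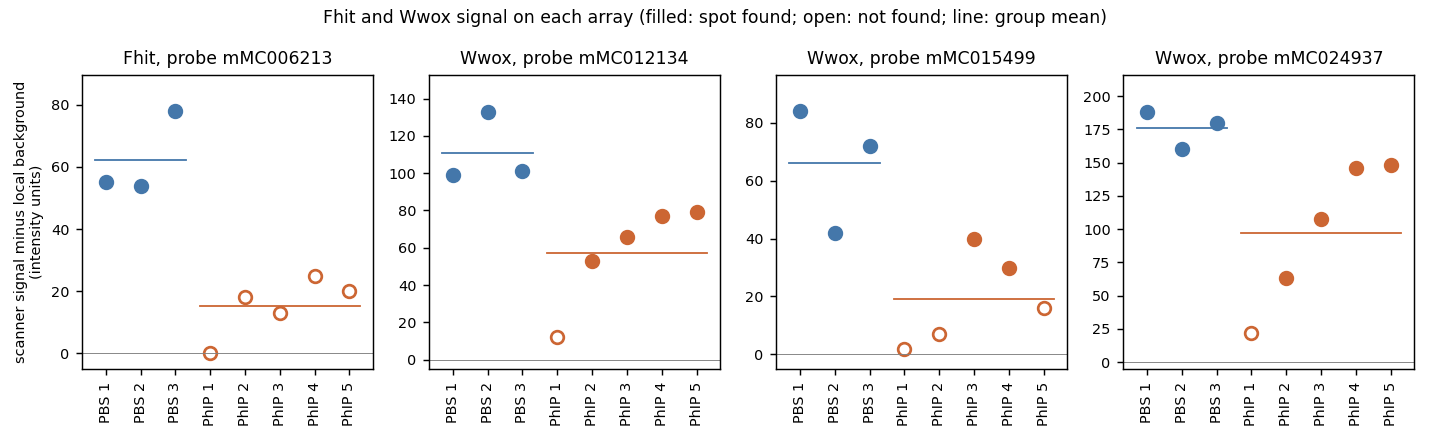
Scanner intensity minus local background (intensity units, linear axis) of the single Fhit probe and the 3 Wwox probes on each array, with PBS mice in blue, PhIP mice in orange, open circles where the software did not find the spot, and lines at the group means. Fhit lies at 54 or more on the PBS arrays and at 25 or less on the PhIP arrays.

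After normalization Fhit had log2 intensities of 5.61, 5.48 and 6.10 in the PBS mice (5.73 ± 0.33, SD, n = 3) and was at the floor of 4.41 in all 5 PhIP mice. The difference was -1.32 on the log2 scale (SE 0.16), which is 2.5-fold lower in PhIP mice at this floor. It compares the PBS mean with the floor, and intensities under the floor have no order. The SE therefore holds no spread between PhIP mice. The size follows the setting: -0.83 with the floor at percentile 10, -1.80 at percentile 1 and -0.59 with normexp background correction. Without PhIP mouse 1 the difference was -1.33 (SE 0.16), 2.52-fold at the floor of that fit. With the authors' arrays it was -1.35 (SE 0.15), 2.54-fold at theirs. In the authors' deposited matrix, which has no such floor, Fhit stood at 5.87, 5.67 and 6.28 in the PBS columns and at 4.29, 3.15, 3.67, 4.43 and 4.46 in the PhIP columns. The value of 3.15 belongs to the column that matches none of the scans, and that array too lay below every PBS array.

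Of the tested features, 23 (0.145%) were found on 3 of 3 PBS arrays and on 0 of 5 PhIP arrays, Fhit among them, and 0 showed the opposite. With 7 scans the counts were 24 (0.151%) and 14 (0.0883%). On the normalized scale 329 features (2.08%) had PhIP values all below the PBS values, Fhit among them, and nothing is read from its place there because this contrast chose it.

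Wwox was found on every PBS array with each of its probes, and its signal in PhIP mice was lower but mostly measurable. The probe with the highest mean, mMC024937, stands for the gene. Its scanner intensity was 188, 160 and 180 in the PBS mice, and 22, 63, 108, 146 and 148 in PhIP mice 1 to 5, where it was found on all arrays but that of mouse 1. PhIP mouse 2 was the lowest of the arrays that found it, and PhIP mice 4 and 5 were close below the lowest PBS mouse. The means were 176 ± 14.4 (SD, n = 3) and 97.4 ± 54.6 (SD, n = 5), or 116 ± 40.0 (SD, n = 4) without PhIP mouse 1, which is 66.1% of the PBS mean.

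Quantile normalization changed the place of 1 array for this probe. Its log2 intensity was 7.44, 7.05 and 7.33 in the PBS mice, and 6.02, 6.62, 6.77 and 7.19 in PhIP mice 2 to 5. On the array of PhIP mouse 1 it became 7.83, the highest of all, although the spot was not found there. The difference was -0.39 (SE 0.42) with that array, -0.63 (SE 0.28) without it, a ratio of 1.54, and -0.78 (SE 0.30) with the authors' arrays. Without PhIP mice 1 and 2 it was -0.41 (SE 0.21), a setting added after seeing the data. The groups overlapped with 8 and with 7 normalized arrays, because PhIP mouse 5 lay above PBS mouse 2, as did PhIP mouse 1 where it was included.

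The second Wwox probe, mMC012134, gave 99, 133 and 101 in the PBS mice, and 12, 53, 66, 77 and 79 in PhIP mice 1 to 5, with the spot not found in PhIP mouse 1. Its log2 difference was -0.48 (SE 0.31) with 8 arrays and -0.64 (SE 0.18) with 7, and the normalized groups were apart with 7 arrays and with the authors' arrays but not with 8 (459 features, 2.9%, were lower in PhIP in this way with 7). The third probe, mMC015499, gave 84, 42 and 72 in the PBS mice, and 2, 7, 40, 30 and 16, found on the arrays of PhIP mice 3 and 4 only. Its log2 difference was -1.19 (SE 0.31) with 8 arrays, 3 of the 5 PhIP values being at the floor, and -1.15 (SE 0.32) with 7, so it is a bound as well. PBS mouse 2 (5.12) and PhIP mouse 3 (5.24) overlapped on this probe.

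The 3 Wwox probes thus had the same sign and differed in size. On the scanner scale, leaving out the dim array of PhIP mouse 1, the other 4 PhIP arrays lay below all 3 PBS arrays with each of the 4 probes. For mMC015499 the nearest values were 40 and 42. Of the tested features, 343 (2.16%) lay lower in this way. Nothing is read from the members among them, because this contrast chose the genes. Over 30 settings of the processing every probe of both genes had a negative difference. The settings largely reuse the arrays on which the genes were chosen as lower, so this sign is a description only. Fhit ranged from -1.94 to -0.59, and the Wwox probes from -0.83 to -0.03 (mMC024937), -0.86 to -0.26 (mMC012134) and -1.76 to -0.57 (mMC015499).

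**Figure D2:**
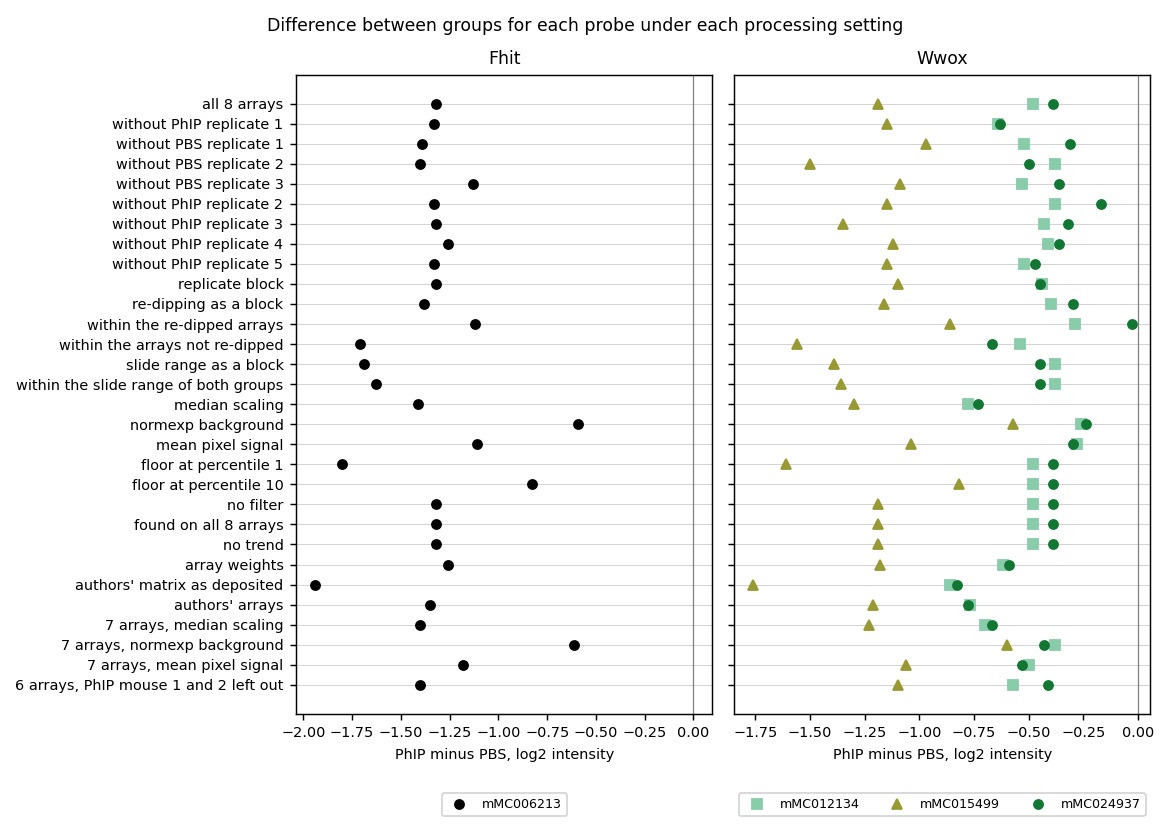
Log2 difference between PhIP and PBS (horizontal axis) for the Fhit probe and the 3 Wwox probes under each of 30 processing settings (rows), with a grey line at no difference. Every point lies left of the line, with Fhit between -1.94 and -0.59 and the main Wwox probe between -0.83 and -0.03. The settings largely reuse the arrays on which the genes were chosen.

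Technical groupings of the arrays were unevenly spread over the treatments. By their scan names PBS mice 1 and 2 and PhIP mice 1 and 3 had re-dipped slides, and PBS mice 1 and 2 came from another slide number range than the remaining 6 mice. Fhit differed by -1.12 (SE 0.36) within the re-dipped arrays and by -1.71 (SE 0.24) within the others. It differed by -1.69 with slide range as a block and by -1.63 within the range that held both groups. For Wwox (mMC024937) these values were -0.03 (SE 0.77), -0.67 (SE 0.49), -0.45 (SE 0.67) and -0.45 (SE 0.75) in the same order. Within the arrays not re-dipped, and within the shared range, the PBS side is mouse 3 alone. With slide range as a block the difference also comes from PBS mouse 3 alone against the PhIP mice. The SEs of these fits therefore say little about how far PBS mice differ. Within the re-dipped arrays the PhIP side is mice 1 and 3.

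Markers of other cells were measured beside the members, since the RNA came from scraped tissue. In such bulk RNA, fewer cells of a type and less RNA per cell cannot be told apart. All 6 fibroblast markers were found on every PBS array, and their summed intensity was 21900 to 32910 on the PBS arrays and 15990 to 20970 on the PhIP arrays, without overlap. The 12 epithelial markers with a probe summed to 34360 to 37930 in PBS and 41160 to 44810 in PhIP mice. Of these, 7 were found on all PBS arrays, and Krt20, Cdx1, Cdx2 and Vil1 were found on none, so the labelled epithelium rests on the others. Erythroid markers (4 of 4 found on all PBS arrays) summed to 9532 to 13810 in PBS and 247.2 to 7087 in PhIP mice, without overlap. Smooth muscle markers (6 of 6) summed to 40090 to 48590 and 17910 to 44320, which overlapped. The sums also overlapped for immune markers (508.1 to 781.9 and 370.1 to 1137), endothelial markers (1020 to 1245 and 913.1 to 1844) and markers of neurons and glia (1364 to 2469 and 1824 to 4448). Over 7 arrays the PBS and PhIP sums were 24120 to 36250 and 17670 to 23100 for fibroblast markers, 37850 to 41760 and 45310 to 49240 for epithelial markers, and 10510 to 15190 and 278.1 to 5297 for erythroid markers. The 7-array sums of smooth muscle markers were 44070 to 53360 and 37220 to 48640, and those of immune markers 571.5 to 877 and 416 to 630.4. Endothelial markers gave 1149 to 1400 and 1029 to 1389, and neurons and glia 1529 to 2753 and 2039 to 3173. The part of these shifts in the values of Fhit and Wwox was not tested.

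The genes whose pattern over the arrays was most like that of a member were taken by the smallest root-mean-square difference of log2 values, each gene centred on its own mean over 7 arrays. Among 10944 genes, those nearest to Fhit were Spon1 (0.209), Shisa2 (0.216), Col5a1 (0.216), Col5a2 (0.233) and Col1a2 (0.240), where the median gene was at 0.730. Spon1 encodes a secreted matrix protein, and the last 3 encode chains of fibrillar collagens. Over these arrays Fhit was at the floor of 4.57 in all 4 PhIP mice, so its pattern is mainly the step between groups that chose it. The ranking thus favours genes with a similar step. Their own log2 differences over 7 arrays lay between -1.19 (Spon1) and -0.94 (Col1a2), which follows from that. Col1a2 is one of the fibroblast markers summed above. Among the nearest to Wwox were Ube2c (0.151), Casq1 (0.178) and Lrrc20 (0.183), against a median of 0.517. With 8 arrays these distances were 0.930 for Col5a2, 1.38 for Lrrc20 and 0.649 for Ube2c, while that of Col5a1 was 0.222.

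The genes next to Fhit and Wwox on their chromosomes did not pass the test. Of the 5 nearest protein-coding genes on each side, 6 around Fhit and 5 around Wwox were tested, and 0 rose or fell by limma with 8 or 7 arrays. With 8 arrays 0 of the 11 had an unadjusted p under 0.05, and with 7 arrays 1 had. Ptprg, the next tested gene to Fhit at higher coordinates, encodes a receptor tyrosine phosphatase and is itself a fragile-site gene of 688.6 kb. Its log2 difference was -1.12 (SE 0.63) with 8 arrays and -0.66 (SE 0.31) with 7 (adjusted p = 0.837 and 0.575, limma). The other 5 around Fhit lay between -0.27 and 0.42 over 7 arrays, in chromosome order 0.42 (Kctd6), -0.27 (Oit1), then beyond Ptprg 0.02 (3830406C13Rik), 0.18 (Fezf2) and -0.16 (Cadps). Around Wwox they were -0.06 (Nudt7, a peroxisomal coenzyme A hydrolase), -0.14 (Vat1l), and on the far side -0.05 (Cdyl2), 0.10 (Cmc2) and 0.40 (Cenpn, a centromere protein).

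**Figure D3:**
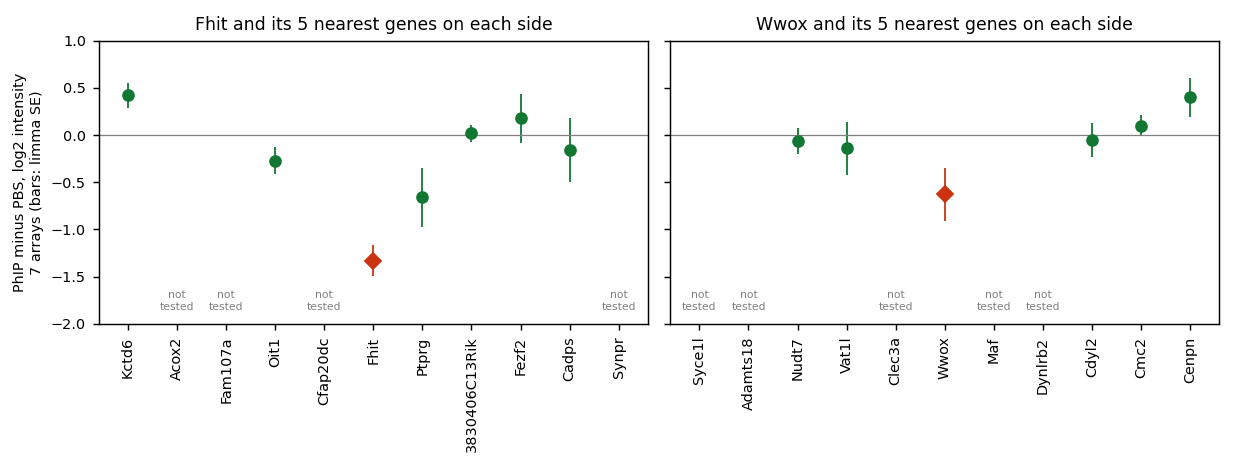
Log2 difference between PhIP and PBS over 7 arrays (vertical axis, bars are limma SE) for Fhit and Wwox (red diamonds) and the 5 nearest protein-coding genes on each side in chromosome order, with those not tested marked. Fhit is drawn at -1.33, a bound set by the floor, with Ptprg beside it at -0.66, and Wwox at -0.63 with its tested neighbours between -0.14 and 0.40.

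Other large genes at common fragile sites mostly had negative differences, but none passed the test. Of 28 such genes without the members, 21 had a probe and 19 were tested. With 8 arrays 16 of the 19 had negative differences and the median was -0.53, where all features had a median of 0.01 and 48.9% were negative. With 7 arrays 15 were negative and the median was -0.35 (all features 0.03, 44.2% negative). By limma 0 rose and 0 fell in both fits, and an unadjusted p under 0.05 was reached by 1 lower gene with 8 arrays, and by 3 lower and 1 higher with 7. Of all features 1.63% were lower and 1.44% higher at that level with 8 arrays, and 3.46% and 5.81% with 7.

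The 3 genes of this list with the smallest p were Immp2l, Dpyd and Gmds. Immp2l, which encodes a subunit of the mitochondrial inner membrane peptidase and spans 931.5 kb, went from 6.32 in PBS to 4.92 in PhIP mice with 8 arrays. Its difference was -1.40 (SE 0.30, adjusted p = 0.837, limma) and with 7 arrays -1.28 (SE 0.27, adjusted p = 0.263). Dpyd, which encodes the enzyme that breaks down uracil and thymine, differed by -0.74 (SE 0.39) and -0.47 (SE 0.18). Gmds, an enzyme of GDP-fucose synthesis, differed by -0.57 (SE 0.31) and -0.37 (SE 0.21).

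The PhIP mice differed in how far this list lay below the PBS mean. Over the 19 genes, the mean log2 difference from PBS was -0.72 in PhIP mouse 2, -0.39 in mouse 5, -0.20 in mouse 4 and -0.09 in mouse 3, and the PBS mice were within 0.02 of their own mean. On the dim array of PhIP mouse 1 it was -1.13. PhIP mouse 2 also had the lowest Wwox value of the 7 arrays with mMC024937. Without PhIP mice 1 and 2 the list's median was -0.26 and 14 of 19 genes were negative, against -0.53 with all 8 arrays. Leaving out any single mouse gave medians from -0.67 to -0.35.

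**Figure D4:**
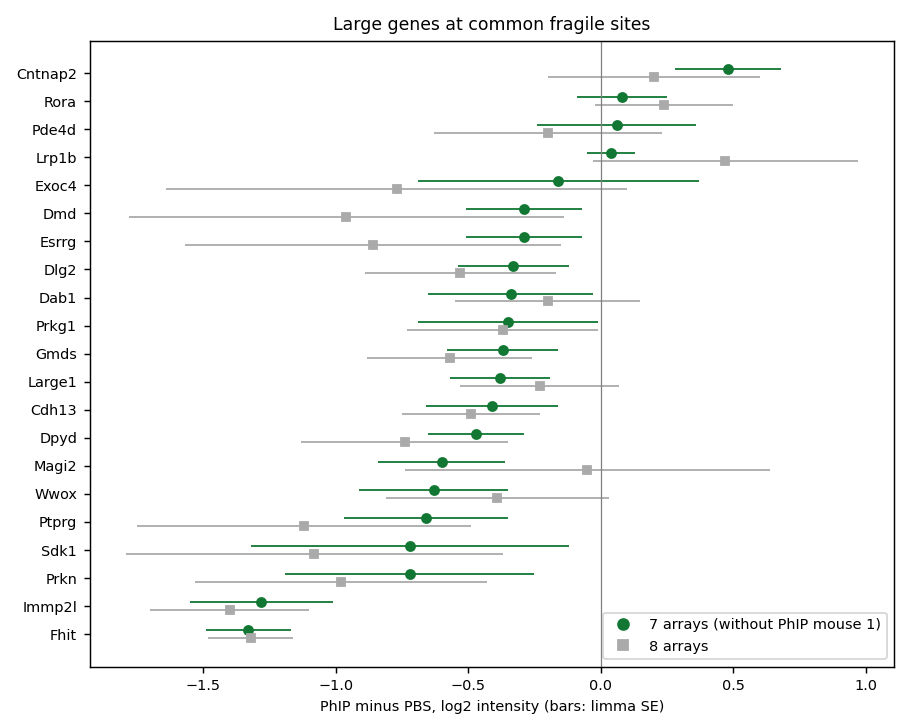
Log2 difference between PhIP and PBS (horizontal axis, bars are limma SE) of Fhit, Wwox and 19 other large fragile-site genes, over 7 arrays (green circles) and 8 arrays (grey squares), ordered by the 7-array value. Immp2l stands at -1.28, Fhit is a bound drawn at the value that the floor gives, and 4 of the 19 genes lie above 0 over 7 arrays.

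Since both members are among the longest genes, differences were also set against genomic span, with Fhit and Wwox left out. With 7 arrays the median difference was 0.05 for genes under 10 kb (3001 genes) and for 10 to 30 kb, 0.02 for 30 to 100 kb, -0.01 for 100 to 300 kb, -0.10 for 300 to 500 kb (163 genes) and -0.16 above 500 kb (108 genes). The share of negative values was 40.0% under 10 kb and 72.2% above 500 kb. With 8 arrays the medians ran from 0.05 to -0.25 and with the authors' arrays from 0.04 to -0.22. Longer genes were also dimmer: the median PBS level was 8.42 under 10 kb and 6.37 above 500 kb on the log2 scale, and the part of signal level in the trend was not tested.

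The shift was also present in long genes outside the fragile-site list. The 89 tested genes above 500 kb that are not on it had a median of -0.18 with 8 arrays and -0.13 with 7 arrays, with 70.8% negative in the latter. Without PhIP mice 1 and 2 it was -0.10. Above 500 kb 0 genes passed by limma with 8 or 7 arrays, and an unadjusted p under 0.05 was reached by 3 lower and 0 higher of 108 with 8 arrays and by 9 lower and 3 higher with 7, beside the shares of all features given above. The 5 with the smallest p, the members left out, were Immp2l (above), Tenm3 at -0.78 (SE 0.30), Kcnd2 at -0.41 (SE 0.16), Opcml and Psd3 at -1.13 (SE 0.53), with 8 arrays. Over 7 arrays Tenm3 was at -0.63, Kcnd2 at -0.36 and Psd3 at -0.86. Opcml had a PBS mean of 4.67 and a PhIP mean at the floor and was found on 2 PBS arrays and 1 PhIP array, so its difference is only bounded. Tenm3 encodes a teneurin adhesion protein, Kcnd2 a potassium channel and Opcml a cell adhesion molecule.

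**Figure D5:**
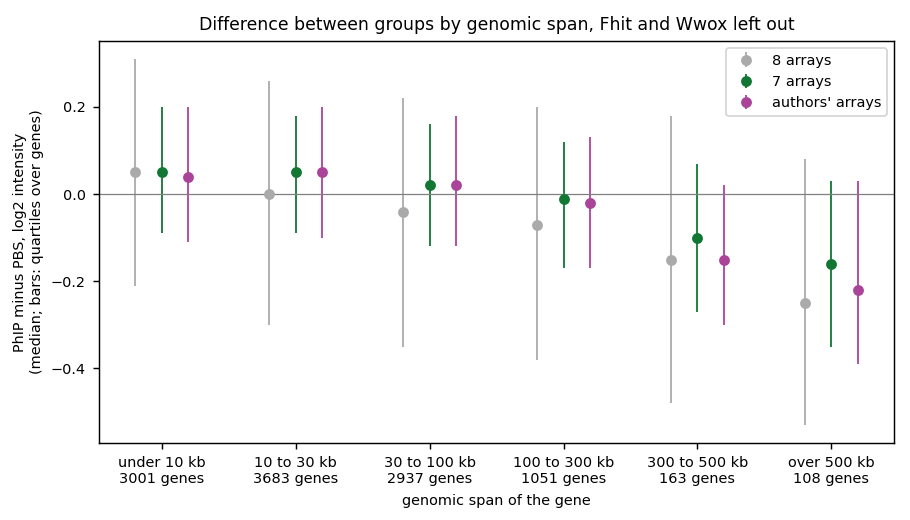
Median log2 difference between PhIP and PBS (vertical axis, bars are quartiles over genes) by genomic span of the gene, for 8 arrays, 7 arrays and the authors' arrays, with Fhit and Wwox left out. Over 7 arrays the median goes from 0.05 for genes under 10 kb to -0.16 above 500 kb, and the quartile ranges of all bins overlap.

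The HIT family relatives of Fhit and the other enzymes of dinucleoside polyphosphates had no member past the test. Of 17 listed, 15 were tested, 0 rose and 0 fell, and the median was -0.04 with 8 arrays and 0.05 with 7, with 0 at an unadjusted p under 0.05 in either. Hint1, a HIT family hydrolase of purine phosphoramidates, differed by 0.16 (SE 0.11) over 7 arrays, and Nudt2, which hydrolyses diadenosine tetraphosphate as Fhit hydrolyses the triphosphate, by 0.11 (SE 0.14). Nit1, whose product is fused to the Fhit protein in flies and worms, differed by 0.10 (SE 0.09), and Nudt3 by -0.16 (SE 0.08).

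The list of reported Fhit partners includes genes, such as Tk1, Cdc25a and Chek1, not established as coding for a protein that binds Fhit. It had no member past the test with 8 arrays. Of 10 tested, 3 were higher and 7 lower, with a median of -0.26, and with 7 arrays the median was -0.03. Mdm2, the ubiquitin ligase of p53 and itself a p53 target, differed by 0.80 (SE 0.18, adjusted p = 0.837, limma) with 8 arrays and by 0.68 (SE 0.07, adjusted p = 0.0516) with 7, and rose with the authors' arrays (0.68, adjusted p = 0.013). Cdc25a, a cell cycle phosphatase, differed by -0.89 (SE 0.72) with 8 arrays and by -0.30 (SE 0.18) with 7. Chek1, a replication checkpoint kinase that acts on it, was found on 1 of 3 PBS arrays with a mean of 4.43, next to the floor, and on 3 of 5 PhIP arrays with a mean of 4.75, so its difference is only bounded.

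The list of reported Wwox partners includes genes, such as Angptl4, not established as coding for a protein that binds Wwox. Of 17 tested genes of this list 0 passed by limma with 8, 7 or the authors' arrays. Their medians were -0.14 and -0.02 with 8 and 7 arrays. An unadjusted p under 0.05 was reached by 0 with 8 arrays and 1 with 7. Angptl4, a secreted inhibitor of lipoprotein lipase, differed by -0.94 (SE 0.55), the WW domain binding protein gene Wbp1 by -0.52 (SE 0.38), and the transcription factor gene Tfap2a by -0.30 (SE 0.29), with 8 arrays. With 7 arrays these were -0.96 (SE 0.58), -0.22 (SE 0.14) and -0.10 (SE 0.13).

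Genes that keep fragile sites stable when replication is slowed did not pass with 8 or 7 arrays. Of 24 tested, 0 rose and 0 fell, 14 had positive differences with 7 arrays, and the medians were 0.13 and 0.12. With 7 arrays 6 had an unadjusted p under 0.05, all higher, and with 8 arrays 0 had. The 3 with the smallest p with 8 arrays were Wrn, a RecQ helicase (0.37, SE 0.17), Chek1 (near the floor in PBS mice, as above) and Atrip, the partner of the ATR kinase (0.48, SE 0.27), each at adjusted p = 0.837 by limma. Polk, a translesion DNA polymerase, differed by 0.35 with 8 arrays (SE 0.87, adjusted p = 0.886, limma). Over 7 arrays its difference was 1.08 (SE 0.12, adjusted p = 0.0642, limma). Polk was the 1 gene of the list to rise with the authors' arrays. It was named because it passed there.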

How the data were processed

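Biotin-labelled cRNA of each mouse was hybridized to long-oligonucleotide arrays and detected with Alexa-647 alone, per the labels' protocols. The arrays were scanned at 635 nm with GenePix Pro 4.1.1.4, per the file headers, and the deposited scanner intensity is the median of a spot minus its local background, not normalized. The deposited flag, a score, says whether the software found a spot, missed it, or took it as empty or bad. The authors' deposited matrix holds log2 values of 35013 probes that equal a scan's log2 intensity plus a constant, within 0.01, in 7 of 8 columns.

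Here, intensities were quantile normalized, floored and put on the log2 scale, and features found on at least 3 arrays were compared with limma 3.58.1 in R 4.3.3 (lmFit, eBayes with trend, 2-sided, Benjamini-Hochberg over all features, threshold 0.05). A gene was represented by its probe of highest mean. Probes flagged bad on any array (23) were left out. Accessions matched 1 symbol for 23071 probes and none for 12007. Groups came from the sample titles. The limma fit was tried on 20 simulated data sets with 200 changed genes each. With 8 arrays it recovered 12.8% of 2-fold and 52.6% of 4-fold changes, and with 7 arrays 55% and 91.5%. Of the calls, 5.01% and 4.47% were unchanged genes. A gene that did not pass may therefore still differ between the groups. The simulated noise was normal and independent between genes and arrays, without a floor. The simulated shares may thus not hold for the real arrays. Figures used matplotlib 3.10.9 in Python 3.11.15.

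The members and gene lists were chosen with earlier results of these data known. Named were all member probes, per list the genes past the threshold or otherwise the 3 with the smallest p, tested neighbours, the 5 genes most like each member (some of those for Wwox are not reported here) and the 5 genes above 500 kb with the smallest p. Hint1 and Polk, outside this rule, were chosen with their values in view. Alternatives changed the background correction, scaling, floor, filter, blocks and arrays. The number of arrays limits the precision.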

Additional observations from a re-analysis of the deposited data

Results flagged for a closer look

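Of 15 values examined for an array far from the others of its group, 5 stood apart, and chance flags about 1 in 20 groups. In 4 of them the array was that of PhIP mouse 1. On that array 21.38% of probes were found, against 54.05% to 57.13% on the other PhIP arrays. The mean log2 level of the HIT family list was 9.293 on it, against 9.915 to 9.982 on the other 4. That of the Fhit partners was 7.884, against 8.79 to 9.059, and that of the Wwox partners 8.747, against 9.258 to 9.46. The remaining value was the Wwox probe mMC015499, at a log2 intensity of 5.238 in PhIP mouse 3, where the other PhIP arrays lay between 4.409 and 4.5, at or just above the floor.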

How the results depend on the processing

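Fhit kept its sign in all 29 alternatives, which largely reuse the arrays on which it was chosen as lower. Where its PhIP values all lie at the floor the difference could not become positive, so nothing is read from the sign. Fhit moved by at least its own pooled within-group SD in 11 of the alternatives. That SD was 0.19, made small by PhIP values that all lay at the floor. Its log2 difference was -0.59 with normexp background correction (-0.61 with 7 arrays), -0.83 with the floor at percentile 10, -1.80 with it at percentile 1, -1.11 with mean pixel signal and -1.94 with the authors' matrix as deposited, against -1.32. By scan name it was -1.12 within the re-dipped arrays. It was -1.71 within the other arrays, -1.69 with a slide range block, and -1.63 in the range shared by both groups, each resting on PBS mouse 3 alone. It was -1.40 to -1.13 when 1 mouse was left out, and with a PBS mouse left out it no longer passed the filter and was a value without a test. Wwox (mMC024937) moved by less than its own SD in all 29 alternatives, but that SD was 0.56 and includes the array of PhIP mouse 1, at 7.83. The 2 genes are thus not judged by the same measure. Wwox ranged from -0.83 to -0.03 over the settings, with -0.63 to -0.17 when 1 mouse was left out. Since the floor sets the size of the Fhit difference, signal over background limits it to a bound. The filter on all 8 arrays left Fhit untested.

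Over all features 2 passed. The count was 0 to 5 when 1 mouse was left out, 5 being that without PhIP mouse 1 and the fits with 0 having 345 to 439 features at an unadjusted p under 0.05. It was 1 with re-dipping as a block, 1 with the floor at percentile 10 and 1 without a trend. With slide range as a block 2 passed, Fitm1 and the unnamed probe mMC024479, both lower (0 higher), and neither passed with no block. It was 11 with array weights, 11 with the authors' arrays, 20 with the matrix as deposited and 0 within the re-dipped arrays (147 at an unadjusted p under 0.05), within the others (1288) and within the shared slide range (244), by limma. Settings added after seeing the data gave, with 7 arrays, 6 with median scaling, 16 with normexp and 7 with mean pixel signal, and 12 without PhIP mice 1 and 2. Median scaling moved the median of all features to -0.13, and Fhit at -1.41 and Wwox at -0.73 are relative to that. It called 2 features higher and 1 lower, against 2 and 0. The gene lists had 0 called genes (2 at an unadjusted p under 0.05), 0 in every fit without 1 mouse, and 2 with the authors' arrays (Mdm2 and Polk). Genes above 500 kb had a median of -0.25, with -0.33 to -0.16 when 1 mouse was left out and -0.13 without PhIP mice 1 and 2. The cause of these differences between settings was not tested.

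PBS and PhIP mice 1 to 3 share numbers in the titles. Same-numbered mice had deviations that correlated at -0.0878, 0.188 and -0.118. The titles state no pairing, and so few correlations, the first with the dim array of PhIP mouse 1, cannot decide whether there was any. With number as a replicate block, Fhit was at -1.32 (SE 0.23) and Wwox at -0.45 (SE 0.54), and 0 features passed by limma (304 at an unadjusted p under 0.05).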
